A study of Mus musculus with 10 samples.

Results

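Mitochondrial ribosomal protein genes, the nuclear genes that encode the proteins of the ribosome inside mitochondria, were taken as all symbols made of Mrpl or Mrps, a number and an optional letter a, b or c. The rule found 78 of the 21934 symbols in the deposited tables, 49 Mrpl genes of the large subunit and 29 Mrps genes of the small subunit. All 78 were measured in every library, and all 78 passed the filter described below, so none is left out of the counts.

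The mitochondrial ribosome translates the few proteins that the mitochondrial genome encodes, all of them subunits of the respiratory chain and of ATP synthase. Its own proteins are made by cytosolic ribosomes from nuclear mRNA, imported through the mitochondrial membranes and assembled on mitochondrial rRNA into a large subunit, which forms peptide bonds, and a small subunit, which holds the mRNA. Most of its proteins are present once per ribosome, some of them with bacterial counterparts and others found in mitochondrial ribosomes alone.

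The measurements were ribosome profiling: short RNA fragments protected by ribosomes (footprints) and, from the same condition, mRNA captured on beads (input), with 1 library of each kind in each of 5 conditions. Guide 1 and guide 2 are immortalized bone marrow-derived macrophages (iBMDM) from monoclonal lines infected with lentivirus carrying the guide RNA labelled sgWdr4-1 or sgWdr4-2, kept on puromycin for at least a week, and WT is the control of the same cell type. cKO and ff are F4/80-sorted tumour-associated macrophages (TAM) from liver tumours grown from Hepa1-6 cells inoculated into the livers of mice labelled Wdr4 cKO, with a Wdr4 knockout in myeloid cells, or Wdr4 ff. The series' title asks about Wdr4, the partner of the tRNA methyltransferase Mettl1, and translation. The sources used here do not name the driver of the deletion, the treatment of the WT line with vector or puromycin, the ages of the mice or the number pooled.

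Values are TPM, which corrects for gene length and sums to the same total in each library, so levels may be compared between genes. Read depth is unknown, and the iBMDM and TAM tables were normalised separately, so changes were taken within a table. Translation efficiency is log2(footprint TPM + 1) minus log2(input TPM + 1) in a condition, where 0 means as many footprints as input and 1 means 2-fold more. Relative translation efficiency subtracts the median gene of that condition.

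The libraries did not all follow their labels. Wdr4 input was 31.3 TPM in guide 1 and 44.5 TPM in guide 2, against 44.6 TPM in WT, and 20.9 TPM in cKO, against 39.8 TPM in ff. Wdr4 footprints were 24.3 and 26.9 TPM under the guides, against 13.3 TPM in WT, and 17.7 TPM in cKO, against 8.51 TPM in ff, so they were higher in each library labelled as targeted. Below 1 TPM in all 5 input libraries were 16 of 20 macrophage markers, and Adgre1, which encodes the sorted protein F4/80, was listed at 0 in all of them. The summed input of the 20 was 688 TPM in cKO, against 526 TPM in ff, and 564 to 627 TPM under the guides, against 589.5 TPM in WT. Of the 19 hepatocyte and hepatoma markers measured, 15 were below 1 TPM in every input library, with a summed input of 187 TPM in cKO, against 115 TPM in ff, and so were 8 of 9 T and NK cell and 5 of 6 endothelial markers. Of 14 fibroblast and stellate cell markers, 8 were below 1 TPM and 6 reached 5 TPM in every input, against 2 of the macrophage and 3 of the hepatocyte markers that reached it, with a summed input of 5247 TPM in cKO, against 3591 TPM in ff, and of 3649 to 4226 TPM under the guides, against 3579 TPM in WT. In the guide 1 footprint library mitochondrially encoded transcripts took 0.781% of TPM, against 9.94% to 14.6% in the other footprint libraries. Groups below are named by their labels, and the part of these differences in the results was not tested.

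Sequences around the start of transcription are shown for the members with the most and the fewest footprints per input, and for Mrps18b, the one member past 2-fold in translation efficiency under both guides. RefSeq's table for GRCm38.p6 held a promoter for 69 of the 78 members, from 250 bases before to 50 after the start of 1 transcript each, and the lines below give the last 100 bases before the start and the first 15 from it, 5′ to 3′ on the gene's strand. Capitals mark an ETS motif (CCGGAAG or its reverse complement) or an NRF1 motif (GCGCANGCG, either strand) lying wholly in the stretch. The stretches of Mrps17 and Mrps18b held neither. Over the whole promoter Mrps18b held both motifs, and Mrps17 again neither. Rps6, a protein of the cytosolic ribosome, is added because capitals there also mark its run of pyrimidines at the start, the 5′ terminal oligopyrimidine tract through which growth signals are known to control translation of cytosolic ribosomal protein mRNA.
Mrpl51 (chr6:125192100-125192214, plus strand): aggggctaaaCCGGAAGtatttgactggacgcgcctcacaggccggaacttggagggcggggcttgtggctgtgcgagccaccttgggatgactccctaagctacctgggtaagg
Mrpl57 (chr14:57826139-57826253, plus strand): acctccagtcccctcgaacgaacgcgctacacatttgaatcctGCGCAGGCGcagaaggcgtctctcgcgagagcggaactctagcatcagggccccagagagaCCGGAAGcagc
Mrps17 (chr5:129715397-129715511, plus strand): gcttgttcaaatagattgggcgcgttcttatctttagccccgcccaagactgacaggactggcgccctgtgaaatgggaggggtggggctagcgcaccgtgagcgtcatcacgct
Mrpl33 (chr5:31613851-31613965, plus strand): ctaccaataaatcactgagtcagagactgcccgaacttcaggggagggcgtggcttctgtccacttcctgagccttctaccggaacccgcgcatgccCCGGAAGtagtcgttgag
Mrps27 (chr13:99344686-99344800, plus strand): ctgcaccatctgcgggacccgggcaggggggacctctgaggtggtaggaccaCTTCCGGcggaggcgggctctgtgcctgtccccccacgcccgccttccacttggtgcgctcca
Mrps18b (chr17:35916426-35916540, minus strand): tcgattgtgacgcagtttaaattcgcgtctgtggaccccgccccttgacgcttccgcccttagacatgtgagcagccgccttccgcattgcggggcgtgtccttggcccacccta
Rps6 (chr4:86857353-86857467, minus strand): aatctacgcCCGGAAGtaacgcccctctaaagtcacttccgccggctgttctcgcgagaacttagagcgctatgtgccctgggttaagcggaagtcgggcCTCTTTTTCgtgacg

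Motifs of ETS factors, of NRF1 (nuclear respiratory factor 1, a regulator of nuclear genes for mitochondria) and of YY1 are known from promoters of housekeeping and mitochondrial genes. Searched on both strands of the 300-base promoters, the ETS motif was found in 25 of 69 members (36.2%), against 22.8% of the 5561 tested genes with a promoter and 9.12% of all 27025 promoters. The NRF1 motif was found in 16 members (23.2%), against 17.3% of tested genes and 6.47% of all promoters. The YY1 motif AAGATGGCG was found in 8 members (11.6%), against 4.30% and 1.49%. Hits of different motifs overlapped in 0 members, and 41 of 69 (59.4%) held at least 1 of the 3, against 38.8% of tested genes and 15.3% of all promoters. Related groups had similar shares for some motifs. Of 60 cytosolic ribosomal protein promoters, 40% held the ETS, 13.3% the NRF1 and 5% the YY1 motif, and 55% at least 1. Of 53 nuclear-encoded respiratory chain promoters, the shares were 20.8%, 24.5%, 9.43% and 47.2% in the same order. Large and small subunit genes held the ETS motif in 14 of 43 and 11 of 26, the NRF1 motif in 12 of 43 and 4 of 26, and the YY1 motif in 4 of 43 and 4 of 26 promoters. These shares were not tested.

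A start of C followed by 4 pyrimidines was found in 0 of 69 members, against 12 of 60 cytosolic ribosomal protein genes (20%) and 2.59% of tested genes. The annotated start of 1 transcript was read, so a tract at another start would not be counted.

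The members' footprints ranged 52.0-fold and their input mRNA 27.7-fold. Mean input over the 5 conditions ran from 10.6 ± 1.72 TPM for Mrpl57 to 293 ± 30.9 TPM for Mrpl20 (SD, n = 5 libraries), both of the large subunit. Together the 78 genes took 0.621% to 0.761% of footprint TPM and 0.582% to 0.664% of input TPM per library. The other genes with the highest mean input were Mrpl54 (226 TPM), Mrpl42 (218 TPM), Mrpl3 (199 TPM) and Mrpl13 (178 TPM), all of the large subunit. The other genes with the lowest were Mrps35 (12.3 TPM), Mrps26 (14.9 TPM), Mrpl47 (16.7 TPM) and Mrps16 (18.6 TPM). At the median, the SD of a member over the 5 libraries was 22.2% of its mean in footprints and 7.95% in input.

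**Figure D1:**
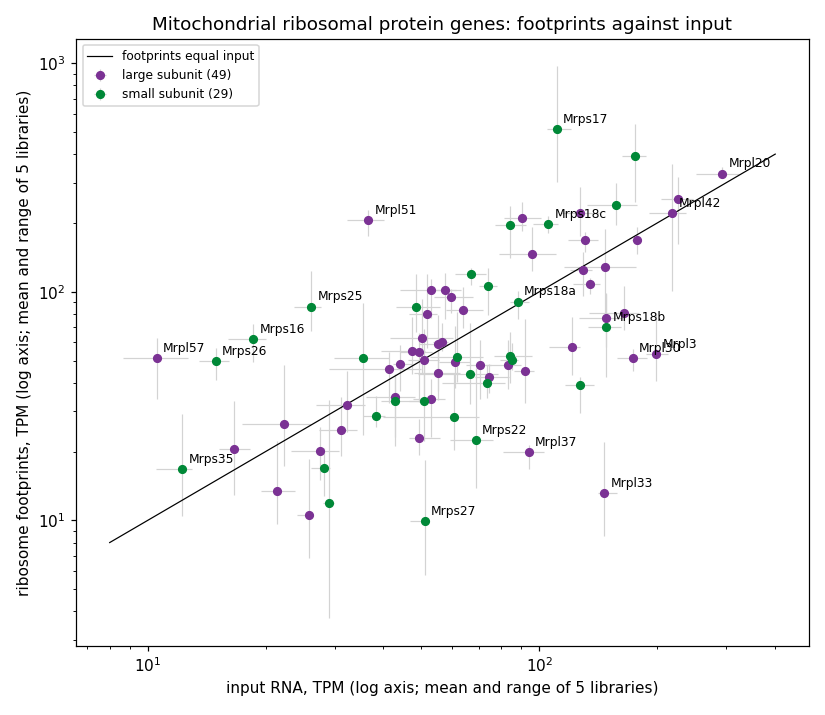
Mean footprint TPM (vertical, log axis) against mean input TPM (horizontal, log axis) of the 78 genes, large subunit in purple and small subunit in green, with grey bars from the lowest to the highest of the 5 libraries and a line where both are equal. Mrpl51, Mrpl57 and Mrps17 lie above the line, and Mrpl33 and Mrps27 lie farthest below it.

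Footprints spread the members more widely than input did in each of the 5 conditions, as they also spread all genes tested. The robust SD over members of log2(TPM + 1) was 1.19 ± 0.16 in footprints and 0.97 ± 0.06 in input (mean ± SD over 5 conditions). Over all genes the means were 1.72 and 1.52, over cytosolic ribosomal protein genes 0.99 and 0.76, and over nuclear-encoded respiratory chain genes 1.29 and 1.02. Under guide 1 the members' values were close, at 0.990 and 0.963. The large subunit genes went the other way there, at 0.94 in footprints and 1.16 in input. The correlation over the 78 members between log2 footprints and log2 input in a condition was 0.53 to 0.58, against 0.73 to 0.79 over all 6927 genes tested in both tables. All genes also spanned a wider range, with a mean SD of log2 input of 1.65, against 1.02 for members. The correlation was 0.43 to 0.58 over nuclear-encoded respiratory chain genes and -0.15 to -0.03 over cytosolic ribosomal protein genes. A low value is thus not particular to the members. Genes of a library share its depth and protocol, so these correlations are descriptions.

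Translation efficiency varied more between members than within a member across conditions. Its SD between members was 1.06 on the log2 scale, with a median SD of 0.34 within a member over the 5 conditions, and over all genes tested the same values were 1.14 and 0.48. Averaged over conditions, 9 members had at least 2-fold more footprints than input, 15 at least 2-fold fewer, and 54 lay between. The median of all genes tested was itself below equality, at -0.86 to -0.41 in the 5 conditions. The share of all genes past 2-fold was not counted, so whether 15 against 9 is particular to the members is not known.

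**Figure D2:**
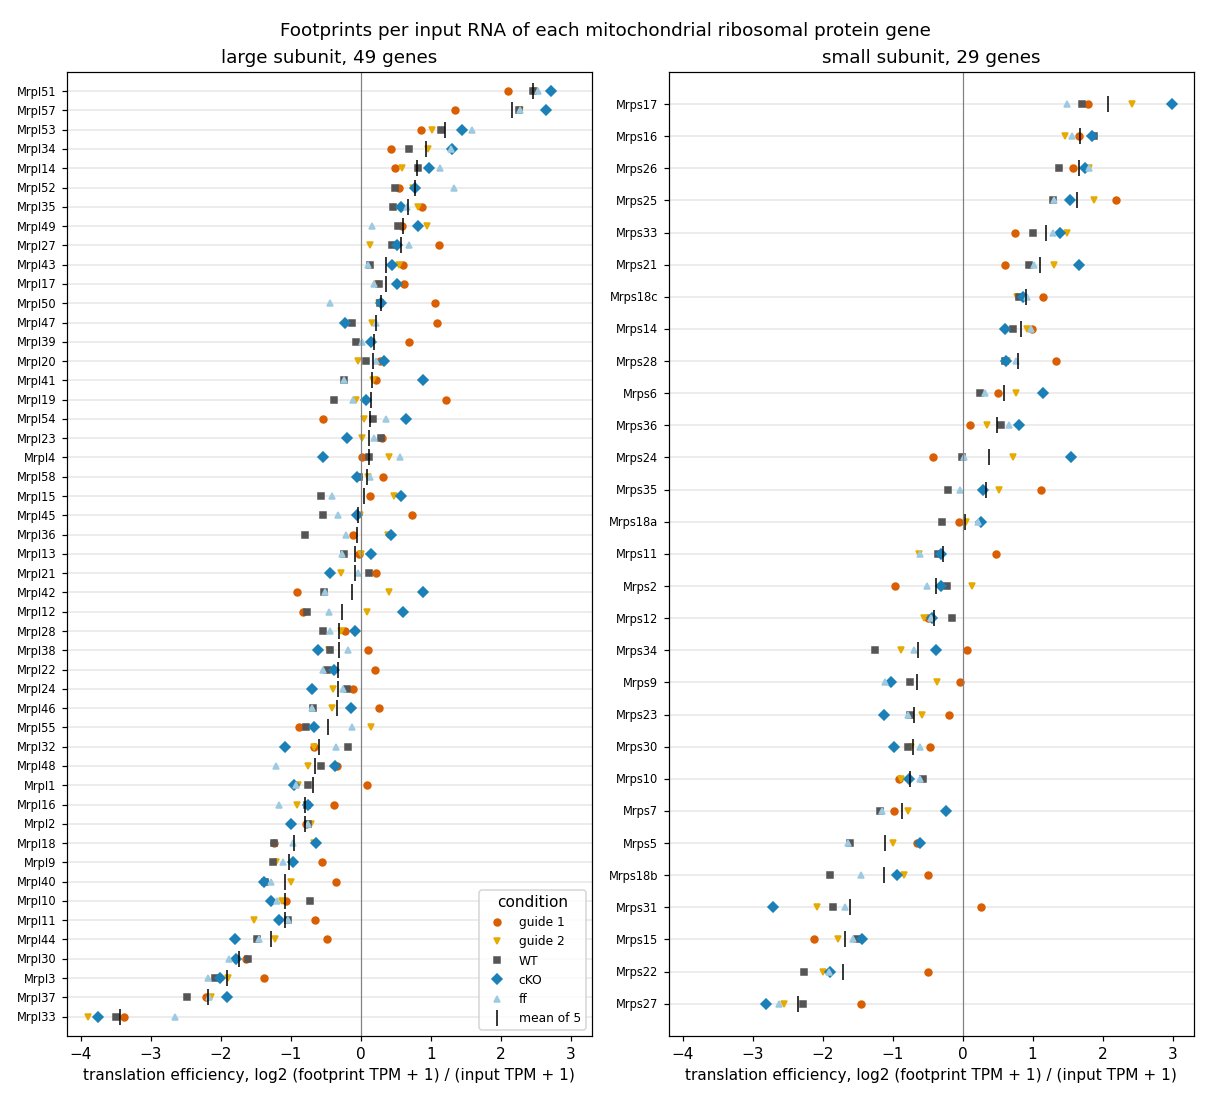
Translation efficiency (log2 of footprint over input TPM, each plus 1) of each gene in the 5 conditions, with large subunit genes on the left and small subunit genes on the right, ordered by the mean (black bar). The means run from 2.46 for Mrpl51 to -3.44 for Mrpl33, and guide 1 lies apart from the other conditions for genes such as Mrps31 and Mrps22.

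At the top of the order stood 6 genes, 2 of the large and 4 of the small subunit. Mrpl51, a large subunit protein without a bacterial counterpart, had 176, 227 and 189 footprint TPM in guide 1, guide 2 and WT and 218 and 223 in cKO and ff, against 40.2, 39.5, 33.4, 32.3 and 37.7 input TPM in the same order. Its footprints exceeded input in every condition, on average 5.51-fold on the TPM + 1 scale. Mrpl57, another protein of mitochondrial ribosomes alone, had 33.8, 62.0 and 53.3 footprint TPM in guide 1, guide 2 and WT and 63.0 and 45.5 in cKO and ff, against 12.7, 11.96, 10.3, 9.25 and 8.64 input TPM in the same order. It was the member with the lowest mean input, and its footprints again exceeded input in all 5 conditions. Mrps17, whose bacterial counterpart binds rRNA of the small subunit, had 397, 562 and 355 footprint TPM in guide 1, guide 2 and WT and 967 and 301 in cKO and ff, against 113, 105, 109, 121 and 107 input TPM in the same order. Its input differed little between libraries, while its footprints in cKO were above those of the other 4 conditions. Mrps16, with a bacterial counterpart, and Mrps26 and Mrps25, without one, had on average 3.21-, 3.17- and 3.12-fold more footprints than input.

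At the bottom of the order Mrpl33 stood alone. Mrpl33, a large subunit protein with a bacterial counterpart, had 12.9, 8.56 and 11.7 footprint TPM in guide 1, guide 2 and WT and 10.8 and 22.0 in cKO and ff, against 145, 141, 144, 158 and 144 input TPM in the same order. Its input was above the members' median in every library, and its footprints were on average 0.0922 of input. Mrps27, a small subunit protein with pentatricopeptide repeats, a fold known from RNA binding proteins, had 18.4, 7.96 and 9.95 footprint TPM in guide 1, guide 2 and WT and 5.77 and 7.53 in cKO and ff, against 52.1, 51.8, 52.4, 46.7 and 51.8 input TPM in the same order. Guide 1 had the most footprints of the 5, and all 5 lay below input. Mrpl37, a large subunit protein without a bacterial counterpart, had 0.220 as many footprints as input on average, and Mrpl3, whose bacterial counterpart lies near the site of peptide bond formation, had 0.265. For Mrpl30, with a bacterial counterpart, and Mrps22, without one, the ratios were 0.300 and 0.306.

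Set against the median gene over the 5 conditions, more members lay above it than below. In limma's test on relative translation efficiency (two-sided, Benjamini-Hochberg adjusted p under 0.05), 39 of 78 members (50%) were above the median gene, against 31.3% of the 6927 genes tested, and 11 (14.1%) were below it, against 30.5%. The other 28 passed in neither direction. Mrpl51 lay 3.05 ± 0.20 (SE, adjusted p = 1.39e-06) above the median gene on the log2 scale by limma, Mrpl57 2.75 ± 0.24 (SE, adjusted p = 6.42e-06) and Mrps17 2.67 ± 0.26 (SE, adjusted p = 1.26e-05). By the same test Mrpl33 lay at -2.85 ± 0.26 (SE, adjusted p = 7.69e-06), Mrps27 at -1.76 ± 0.23 (SE, adjusted p = 7.66e-05) and Mrpl37 at -1.59 ± 0.22 (SE, adjusted p = 1.02e-04). The other members below were Mrpl3, Mrpl30, Mrps22, Mrps15, Mrps31, Mrpl44, Mrpl11 and Mrpl10. In all 5 conditions alike, 38 members (48.7%) were above the median gene, against 29.0% of all genes tested, and 14 (17.9%) below it, against 27.8%.

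The counts depend on where the median gene lies. Without centring on it, 20 members had more footprints than input and 27 fewer. With a filter of 20 TPM, which 65 members pass in each table, limma called 36 members, both directions together. Of these 36, 22 were above. Without a filter, 19 were above and 25 below. Leaving out WT, the members below were 7, and leaving out guide 1, 37 were above and 14 below. Calls over all genes moved too. Both directions together, 4284 of 6927 became 4793 without centring, 2166 of 3450 at 20 TPM and 6186 of 21934 without a filter. Leaving out WT gave 3680 of 6927 genes, and leaving out guide 1 gave 4697. The shares of all genes by direction are not given for these settings. The 5 pairs of libraries are not cultures of one condition, and the labels do not say that any came from separate cultures, so these p-values measure the spread between these library pairs. Input was captured as mRNA and footprints were depleted of rRNA, and whether TPM used transcript or coding length is not given in the sources used here, so a gene's level also holds what differs between the protocols, whose part was not tested. Of the 78 genes, 25 overlap another annotated gene and 20 of these a coding one, and the sources used here do not say whether counting used strand. Among those named, Mrpl33 (Gm38424), Mrps27 (6430562O15Rik), Mrpl37 (Cyb5rl), Mrpl57 (Ska3), Mrps25 (Nr2c2), Mrpl19 (Gcfc2), Mrpl44 (Wdfy1), Mrps18a (Rsph9) and Mrps18b (Gm16279) overlap a neighbour, so their values are uncertain.

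Gene groups with related roles differed in where they lay. Of 76 nuclear-encoded respiratory chain genes tested, 55 were above the median gene and 6 below, and of 71 cytosolic ribosomal protein genes 34 were above and 19 below. The median relative translation efficiency of the mitochondrial ribosomal protein genes was 0.50 under guide 1 and 0.56 under guide 2, against 0.26 in WT, and 0.75 in cKO, against 0.33 in ff. For cytosolic ribosomal protein genes it was 0.63 and 0.51 under the guides, against -0.04 in WT, and 0.92 in cKO, against 0.15 in ff. Of the 78 members 52 and 51 lay above the median gene under guide 1 and guide 2, against 45 in WT, and 58 in cKO, against 50 in ff.

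**Figure D3:**
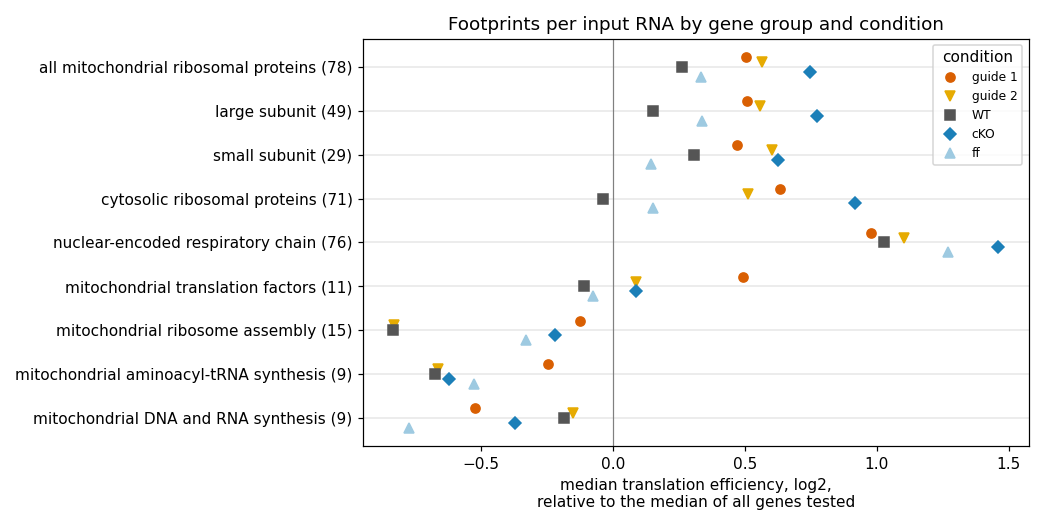
Median relative translation efficiency (log2, 0 is the median of all genes tested) of each gene group in the 5 conditions, with the number of genes in brackets. For all mitochondrial ribosomal protein genes guide 1, guide 2 and cKO lie at 0.50 to 0.75, and WT and ff at 0.26 and 0.33.

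Large and small subunit genes had similar medians, with differences below their own SD over the 5 conditions when subunits were taken from the symbols. The median of the large minus that of the small subunit genes was 0.12 ± 0.14 in log2 footprints, -0.08 ± 0.13 in log2 input and 0.04 ± 0.14 in translation efficiency (mean ± SD over 5 conditions). In translation efficiency the difference ran from -0.15 in WT to 0.19 in ff, so it had no common sign, while in footprints it was positive in all 5, from 0.00216 to 0.36. With means of at least 20 TPM the average difference in footprints was -0.0187. Above the median gene were 25 of 49 large subunit genes (51.02%) and 14 of 29 small subunit genes (48.3%), against 31.3% of all genes tested. Below it were 7 large (14.3%) and 4 small subunit genes (13.8%), against 30.5%. The robust SD between genes of log2 footprints was 1.20 ± 0.18 for large and 1.29 ± 0.07 for small subunit genes, and that of log2 input was 1.05 ± 0.14 and 0.84 ± 0.08 (mean ± SD over 5 conditions).

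Symbols do not always give the subunit. In structures of the mammalian mitochondrial ribosome the products of Mrps18a and Mrps30 sit in the large subunit, and Mrps36 encodes a component of the α-ketoglutarate dehydrogenase complex. With these 3 genes placed so, 51 large and 26 small subunit genes differed by 0.20 ± 0.11 in log2 footprints, -0.04 ± 0.13 in log2 input and 0.06 ± 0.17 in translation efficiency. The difference in footprints was again positive in all 5 conditions, at 0.11 to 0.36, and those in input and translation efficiency had no common sign. Mean translation efficiency was -0.71 ± 0.19 for Mrps30 and 0.50 ± 0.27 for Mrps36 (SD, n = 5 conditions).

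The paralogues Mrps18a, Mrps18b and Mrps18c, relatives of a single bacterial protein, lay far apart. Mrps18c had 215, 192 and 181 footprint TPM in guide 1, guide 2 and WT and 190.5 and 211 in cKO and ff, against 96.6, 111, 104, 104 and 111 input TPM in the same order. Mrps18a had 81.3, 96.5 and 76.3 footprint TPM in guide 1, guide 2 and WT and 101 and 98.2 in cKO and ff, against 84.1, 93.6, 93.9, 84.0 and 84.5 input TPM in the same order. Mrps18b had 98.7, 82.8 and 42.4 footprint TPM in guide 1, guide 2 and WT and 68.7 and 57.1 in cKO and ff, against 139.6, 149, 161, 133 and 158 input TPM in the same order. Mrps18c thus had more footprints than input in all 5 conditions and Mrps18b fewer in all 5, with means of 0.90 ± 0.15 and -1.13 ± 0.55, and Mrps18a lay near equality at 0.03 ± 0.22 (SD, n = 5). The 5 values of Mrps18c, 0.78 to 1.14, did not overlap those of Mrps18b, -1.90 to -0.50.

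Between guide lines and WT the members' input differed little. No member passed 2-fold in input under both guides in either direction, against 0.0133% of genes higher and 0.0265% lower. The median change of the 78 members in input was -0.08 under guide 1, against 0.08 for all 7536 genes tested, and 0.01 under guide 2, against 0.01. In footprints it was 0.20 under guide 1, against 0.09 for all genes, and 0.17 under guide 2, against -0.03. In translation efficiency it was 0.28 under guide 1, against 0.01, and 0.22 under guide 2, against -0.05. Both guides were set against the same WT libraries.

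**Figure D4:**
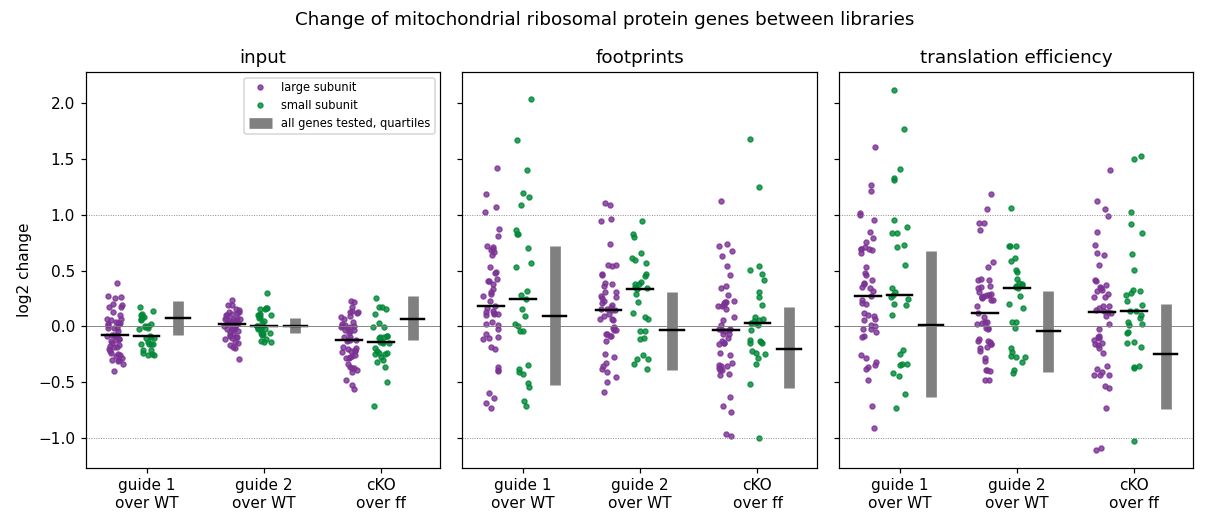
Log2 change of each gene (points) in input, footprints and translation efficiency for guide 1 and guide 2 over WT and cKO over ff, large subunit in purple left of small subunit in green, with black bars at the medians and grey bars from the lower to the upper quartile of all genes tested. Dotted lines mark 2-fold. No point passes them in input. In translation efficiency 9 (11.5%, against 14.8% of genes) are higher under guide 1 and 3 (3.85%, against 3.53%) under guide 2. Under the guides 0 are lower, against 13.7% and 4.87% of genes. In cKO 6 (7.69%, against 4.03%) are higher and 3 (3.85%, against 16%) are lower.

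No member passed limma between the guide lines and WT. limma compared guide 1 and guide 2 (n = 2) with WT (n = 1) on 1 residual degree of freedom, assuming that the lone WT line varies as the guides do. At an adjusted p under 0.05 it called 0 members and 0% of genes in input, 0 members and 0.0133% of genes in footprints, and 0 members and 0.0663% of genes in translation efficiency. At an unadjusted p under 0.05 the same limma fits gave 0 members in each, against 55, 65 and 165 of all genes. The lowest unadjusted limma p of a member was 0.101 for Mrpl35 in input, 0.161 for Mrps18b in footprints and 0.0976 for Mrps35 in translation efficiency.

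By size, Mrps18b was the one member past 2-fold in translation efficiency under both guides. In footprints 0 members passed 2-fold under both guides in either direction, against 0.743% of genes higher and 1.43% lower. In translation efficiency 1 of 78 (1.28%) was higher under both, against 0.902% of genes, and 0 were lower, against 2.04%. Mrps18b, a small subunit protein, had 98.7 and 82.8 footprint TPM under guide 1 and guide 2, against 42.4 in WT, on input of 139.6 and 149 TPM, against 161 in WT. Both guide libraries had more footprints and less input than WT, giving changes of 1.41 and 1.06 in translation efficiency and a limma estimate of 1.23 ± 0.92 (SE, adjusted p = 1.00). With a pseudocount of 5 its smaller change no longer reached 2-fold.

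Under guide 1 alone 9 members (11.5%) had 2-fold higher translation efficiency, against 14.8% of genes, and 0 were 2-fold lower, against 13.7%. Mrps31, a small subunit protein without a bacterial counterpart, had 33.8 and 5.94 footprint TPM under guide 1 and guide 2, against 7.49 in WT, on input of 28.1 and 28.5 TPM, against 29.8 in WT. Its guide 1 footprints stood above those of the other 4 conditions, where the highest was 8.45 TPM in ff. Mrps22, of the small subunit and likewise without a bacterial counterpart, had 46.2 and 18.3 footprint TPM under guide 1 and guide 2, against 13.9 in WT, on input of 65.5 and 76.0 TPM, against 70.5 in WT. The pattern was alike, with changes in translation efficiency of 2.12 for Mrps31 and 1.77 for Mrps22 under guide 1 and of -0.23 and 0.27 under guide 2. Mrpl19, of the large subunit and with a bacterial counterpart, had changes of 1.61 under guide 1 and 0.31 under guide 2. The remaining 5 were Mrps35, Mrps34, Mrpl45, Mrpl47 and Mrpl40. The guide 1 footprint library is the one with few mitochondrially encoded footprints, and the part of that in these values was not tested.

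Under guide 2 alone 3 members (3.85%) were 2-fold higher in translation efficiency, against 3.53% of genes, and 0 were lower, against 4.87%. Mrpl36, a small large-subunit protein with a bacterial counterpart, had 42.7 and 69.0 footprint TPM under guide 1 and guide 2, against 31.5 in WT, on input of 46.1 and 52.6 TPM, against 55.5 in WT. Mrpl15, also with a bacterial counterpart, had 61.2 and 79.1 footprint TPM under guide 1 and guide 2, against 36.7 in WT, on input of 56.0 and 56.5 TPM, against 55.1 in WT. Guide 2 had the most footprints of the 3 iBMDM libraries for both, with changes of 1.19 and 1.05 under guide 2 and 0.69 and 0.70 under guide 1. The third member was Mrps18b. With a pseudocount of 5 the change of Mrpl15 under guide 2 was 0.98, short of 2-fold.

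Between cKO and ff there was 1 library of each kind, so no difference has a replicate check. No member passed 2-fold in input, against 1.42% of genes higher and 0.169% lower in cKO, and the lowest input change of a member was that of Mrps5, at 39.8 TPM in cKO, against 66.1 TPM in ff. The median change of the members was -0.12 in input, against 0.06 for all 7101 genes tested, -0.03 in footprints, against -0.20, and 0.13 in translation efficiency, against -0.25. Measured from the median gene, then, the members' median translation efficiency was higher in cKO. In such bulk samples fewer cells of a type and less RNA per cell cannot be told apart.

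In footprints 3 members (3.85%) were 2-fold higher in cKO, against 2.73% of genes, and 0 were 2-fold lower, against 8.15%, though with a pseudocount of 0.1 there were 3 lower members (3.85%), against 9.63% of genes. Mrps17 had 967 footprint TPM in cKO, against 301 in ff, on input of 121 TPM in cKO, against 107 in ff. Mrps24, whose bacterial counterpart lies where mRNA enters the small subunit, had 89.1 footprint TPM in cKO, against 36.8 in ff, on input of 29.8 TPM in cKO, against 36.2 in ff. Mrpl42, of mitochondrial ribosomes alone, had 360.4 footprint TPM in cKO, against 165 in ff, on input of 195 TPM in cKO, against 237 in ff. For each of these 3 genes the cKO footprints were the highest of the 5 conditions, by 2-fold or more over ff, while input differed by less than 2-fold.

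In translation efficiency 6 members (7.69%) were 2-fold higher in cKO, against 4.03% of genes, and 3 (3.85%) were 2-fold lower, against 16% of genes. The higher ones were Mrps24 (1.52), Mrps17 (1.503), Mrpl42 (1.40), Mrpl41 (1.13), Mrpl12 (1.05), the stalk protein that in humans also binds mitochondrial RNA polymerase, and Mrps5 (1.03), as log2 changes. Mrpl12 and Mrps5, and Mrpl35, Mrps34, Mrpl45, Mrpl40, Mrps15, Mrpl44, Mrpl11 and Mrpl10 above, were named after their values were seen. The lower ones were Mrpl4 (-1.10), Mrpl33 (-1.09) and Mrps31 (-1.03). Mrpl4, whose bacterial counterpart lines the exit tunnel, had 32.8 footprint TPM in cKO, against 65.7 in ff, on input of 48.1 TPM in cKO, against 44.1 in ff. The footprints of Mrps31, at 3.73 TPM in cKO, against 8.45 TPM in ff, and of Mrpl33 were low in both libraries. Mrps31 was the one member that reached a mean of 5 TPM in a table through 1 condition alone, here ff, so its lower value in cKO is no support for a change. When libraries were scaled to the same median, 11 members (14.1%) were 2-fold higher, against 8.46% of genes, and 0 were lower, against 9.46%. With a pseudocount of 5, 1 member (1.28%) was lower, against 10.3% of genes.

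**Figure D5:**
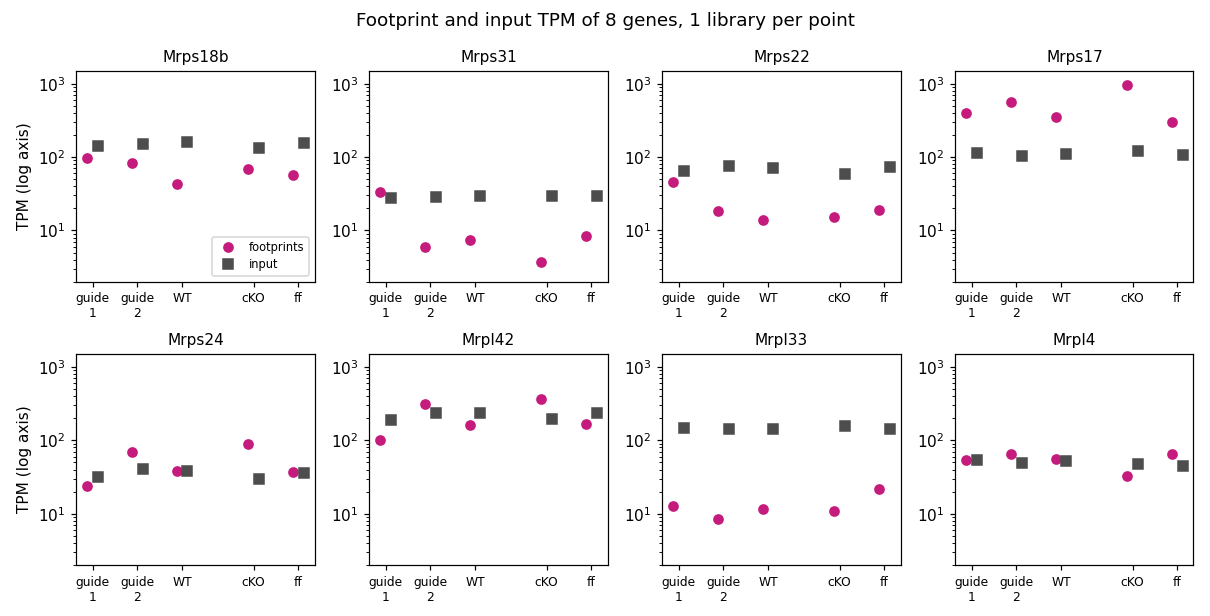
Footprint TPM (pink circles) and input TPM (grey squares), on a log axis, of 8 genes in the libraries of guide 1, guide 2 and WT and of cKO and ff. Input differs by less than 2-fold across each panel, while footprints of Mrps18b are lowest in WT, those of Mrps31 and Mrps22 highest in guide 1, and those of Mrps17, Mrps24 and Mrpl42 highest in cKO.

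Changes were also set side by side by subunit. The median change in translation efficiency of the large minus that of the small subunit genes was -0.01 under guide 1, -0.22 under guide 2 and -0.01 in cKO. Under guide 1, 4 of 49 large (8.16%) and 5 of 29 small subunit genes (17.2%) were 2-fold higher, against 14.8% of genes. In cKO 3 large (6.12%) and 3 small subunit genes (10.3%) were higher, against 4.03% of genes, and 2 (4.08%) and 1 (3.45%) were lower, against 16%.

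Cytosolic ribosomal protein genes had median changes in translation efficiency of 0.74 under guide 1, 0.49 under guide 2 and 0.52 in cKO, and nuclear-encoded respiratory chain genes 0.27, 0.08 and 0.02. The mitochondrial ribosomal protein genes lay between them at guide 2 and cKO, with 0.22 and 0.13, and near the respiratory chain at guide 1, with 0.28. These groups were not tested against each other.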

How the data were processed

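Ribosome profiling and matched input RNA were measured in 5 conditions, with 1 library of each kind per condition and 10 libraries in all. The authors deposited TPM values in 2 tables, of 6 iBMDM and 4 TAM libraries. Input was captured on mRNA beads, and footprints were made with RNase I and depleted of rRNA, per the labels' protocols. fastp 0.18.0 and Bowtie2 were used, per the submitters' processing notes. Not given in the sources used here are the quantifier, the genome build, the annotation and how reads with several matches were counted. Depth cannot be read from TPM, and counting intervals are therefore left out.

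Members were the 78 symbols fitting the pattern. The pattern, the gene lists and the rule for named genes were chosen with earlier results of these data known. The rule takes the 6 highest and 6 lowest members by mean translation efficiency and the 5 highest and 5 lowest by mean input. It adds members past 2-fold under both guides, up to 4 per direction in cKO and under each guide for translation efficiency, and Mrps18a, Mrps18b, Mrps18c, Mrps30 and Mrps36. Where a symbol had several rows, the one highest on average was used. Values were log2(TPM + 1), which understates changes of low genes, and genes needed a mean of at least 5 TPM in input and in footprints of a table. That left 7536 iBMDM and 7101 TAM genes, 6927 in both. limma 3.58.1 in R 4.3.3 used empirical Bayes with an expression trend and Benjamini-Hochberg adjustment over all genes tested. It was tested on simulated data. No count model was run because TPM is not a count. Large and small subunit genes, medians, spreads and 2-fold counts were described without a test. Promoter sequences are RefSeq's for GRCm38.p6, 1 per gene. Tables and figures were made with pandas 2.3.3, numpy 2.4.6 and matplotlib 3.10.9 in Python 3.11.15. The alternatives were other pseudocounts, filters and scalings, no trend, no pairing, leaving out conditions, subunits by structure, SD in place of robust SD, and repeated rows summed.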

Additional observations from a re-analysis of the deposited data

Results flagged for a closer look

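Mrps27 had one condition far from the other 4. Its relative translation efficiency was -1.04 under guide 1, and the nearest other value was -1.75. The gap took 0.715 of the whole range, above the critical value of 0.710 for 5 samples. Of 33 groups of 5 values examined this was the 1 that passed, and chance passes about 1 in 20.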

How the results depend on the processing

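The alternatives followed 26 levels and changes of named members, 16 of them with means of at least 20 TPM. No sign turned among these, but several small medians did turn. Levels and changes of other members named here, such as Mrpl12 and Mrps5, were not followed. The median member change in cKO footprints was -0.03 and became 0.00982 with means of at least 20 TPM, 0.18 with libraries scaled to the same median and 0.0810 without the most abundant gene classes. The same-median scaling gave -0.00964 for input under guide 2, in place of 0.01. The large minus small subunit difference in footprints was -0.0187 with means of at least 20 TPM, and that in the guide 1 change of translation efficiency was -0.01 and ran up to 0.0622. With a pseudocount of 0.1, 3 members were 2-fold lower in cKO footprints, in place of 0. With a pseudocount of 5, 0 members were 2-fold higher in translation efficiency under both guides and 1 was lower in cKO. With means of at least 20 TPM, 1 of 65 members (1.54%) was lower in cKO translation efficiency, against 11.1% of genes. With that filter 22 of the 36 members called by limma were above the median gene, and the robust SD of input was 0.89. Members above the median gene outnumbered those below (39 and 11), whereas without a filter 19 were above and 25 below, and without centring 20 and 27. With the iBMDM conditions alone 7 were below. Leaving out 1 condition at a time gave 33 to 38 members above and 7 to 14 below, with 7 when WT was left out. Over all genes, both directions together, limma called 4284 of 6927, against 6186 of 21934 without a filter and 4793 of 6927 without centring. With the iBMDM conditions alone it called 3068 of 6927, and leaving out 1 condition at a time 3581 to 4697. For 2-fold counts, guide 1 alone gave 10 members higher in footprints (12.8%, against 16.1% of genes) and 9 in translation efficiency (11.5%, against 14.8%), and guide 2 alone 2 (2.56%, against 3.03%) and 3 (3.85%, against 3.53%).

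With libraries scaled to the same median, the median member change was -0.19 in input and 0.0683 in footprints under guide 1, and 0.18 in footprints and 0.43 in translation efficiency in cKO. Then 1 member was 2-fold higher in footprints under both guides, and 11 were higher and 0 lower in cKO translation efficiency. Leaving mitochondrially encoded, cytosolic ribosomal protein and histone genes out of TPM gave guide 1 medians of 0.0342 in footprints and 0.16 in translation efficiency. In cKO the medians were 0.0810 and 0.29 in the same order. With these genes left out, 0 members were 2-fold lower in cKO translation efficiency, against 13.3% of genes. There 9 members (11.5%) were 2-fold higher, against 6.2% of genes. The causes of these moves were not tested.

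Without the pairing of footprints and input (no replicate block), 39 members were above and 14 below the median gene, and the interaction term called 0 members between guides and WT. Over all genes these fits called 4406 of 6927, both directions together, and 0 of 7536. limma called 0 members there under every alternative, while its calls over all genes ran from 0 to 357 in input, 0 to 270 in footprints and 0 to 10 in translation efficiency. Depth is unknown, so low footprints such as those of Mrps31 carry an unknown counting error.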

Other observations

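Genes that work with the mitochondrial ribosome gave the following values, without a test between libraries. Of 5 ribosome members with other symbols, Gadd45gip1, a large subunit protein also known as Crif1, passed 2-fold in translation efficiency under both guides. It had 44.0 and 45.6 footprint TPM under guide 1 and guide 2, against 21.7 in WT, on input of 22.8 and 27.1 TPM, against 31.0 in WT, and changes of 1.42 and 1.23. In cKO its change was 0.69. Dap3, a GTP-binding small subunit protein, had changes of 0.28, -0.40 and -0.54 under guide 1, guide 2 and in cKO.

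Mitochondrial translation factors had median changes in translation efficiency of 1.14 under guide 1, 0.18 under guide 2 and -0.20 in cKO, against 0.01, -0.05 and -0.25 for all genes tested. In the same order the medians were 0.85, -0.15 and -0.16 for ribosome assembly genes, 0.25, 0.05 and 0.26 for genes of mitochondrial DNA and RNA synthesis, and 0.73, 0.03 and 0.11 for genes of aminoacyl-tRNA synthesis. These medians include genes that reached the filter in footprints through 1 condition alone, so they are no support for a change. Ddx28, for example, had 12.9 footprint TPM under guide 1, 2.26 under guide 2 and 2.15 in WT. Among the assembly genes Noa1 (1.08) and Dhx30 (1.02) were 2-fold higher in cKO and Rpusd4 (-1.33) was 2-fold lower. Rpusd4 footprints were 5.83 TPM in cKO, against 16.1 TPM in ff. Of the genes in these lists past 2-fold under both guides or in cKO, Mrm3, Mtg1 and Mtif2 reached the filter through 1 condition alone. Their own changes are therefore not given, though they are part of the medians.

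Members with the ETS motif (25) had a median mean translation efficiency of 0.36 and a median mean input of 84.0 TPM, against -0.33 and 59.9 TPM for the 44 without it. The NRF1 motif went with -0.30 in 16 members, against -0.13 in the other 53. The YY1 motif went with -0.10 in 8 members, against -0.32 in the other 61. With any of the 3 motifs the value was -0.06 in 41 members, against -0.36 in the other 28. These values are descriptions over 69 members and were not tested.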
